A study of Rattus norvegicus with 30 samples.

Results

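The circadian clock genes Arntl, Clock, Per1, Per2, Per3, Cry1, Cry2, Nr1d1, Nr1d2 and Dbp were followed through the first weeks of life in the lung of rats used to model bronchopulmonary dysplasia, a chronic lung disease that follows oxygen therapy in preterm infants. They were taken from the deposited table by gene symbol. They are 10 of its 35224 genes, and 10 of 10 had enough counts to be tested, among 17571 genes tested. Lung RNA was sequenced in 30 libraries that form 10 groups of 3. By label, newborn rats were kept from within a day of birth in 85% oxygen (the model arm) or in air with 21% oxygen (the control arm), and lung was taken on postnatal day 1, 3, 7, 10 or 14. Mothers were swapped between the arms each day, the trachea was removed and the tissue was rinsed in PBS. No strain, sex or genetic modification is given in the labels.

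Some features of the libraries bear on what follows. There were 15 libraries per arm but 12 rats per arm by label, and whether the 3 libraries of a group are 3 animals is not stated. The p-values therefore reflect sample-to-sample spread that may be technical. The sources used here do not give the hour of tissue collection, so the oxygen label and the hour cannot be told apart, which matters for genes whose transcripts change over the day. Genes known to rise in hyperoxic rodent lung (Cdkn1a, Gdf15 and Nqo1) went against the labels: at day 14 Cdkn1a stood at 29.4 ± 4.37 CPM (read counts scaled to library size, SD, n = 3) in the 85%-labelled group and at 430 ± 42.4 CPM (SD, n = 3) in the 21%-labelled group, and 3 of 3 were lower under the 85% label at days 10 and 14. The groups are therefore called 85%-labelled and 21%-labelled, and every direction given here rests on those labels. Total counts ranged from 14951463 to 18074590 per library. Mitochondrially encoded genes took 2.65% to 19.1% of them, with 4 libraries above 6%: replicates 1 and 3 of the 85%-labelled day 1 group and replicate 3 of both day 3 groups. Markers of lung epithelium, endothelium, macrophages and fibroblasts were present in every group, and none of the 25 in the table was at 0 in a whole group.

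The mammalian clock is a loop of transcription factors. BMAL1, the product of Arntl, pairs with CLOCK and activates genes that carry E-boxes, among them the Per and Cry genes, whose proteins then block the pair. The E-box targets Nr1d1 and Nr1d2 encode the nuclear receptors REV-ERB alpha and beta, which repress Arntl through a site known as the RRE, and Dbp encodes an activator that carries the rhythm to output genes through D-boxes. In lung, clock factors are known from rodents to act in airway cells, macrophages and fibroblasts.

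These motifs were looked up in the promoters of the members, to show where the loop is written in the rat sequence. RefSeq windows of 300 bases (250 before and 50 after the annotated start, build GRCr8) were found for 9 of 10 members. Cry1 had no entry. The letters searched on both strands were CACGTG for the E-box, CACGTT for the related E-prime box, TTATGTAA or TTACGTAA for the D-box, and TAGGTCA or TGGGTCA for the RRE. Of 33469 rat windows of this length, 6.42% held the E-box, 4.83% the E-prime box, 1.01% a D-box and 6.6% an RRE. The 4 windows with a match are printed here 5′ to 3′ on the strand of the gene, with the matching letters in capitals.
Arntl (RefSeq Bmal1), chr1:176766078-176766377, plus strand, RRE at position -16 from the start: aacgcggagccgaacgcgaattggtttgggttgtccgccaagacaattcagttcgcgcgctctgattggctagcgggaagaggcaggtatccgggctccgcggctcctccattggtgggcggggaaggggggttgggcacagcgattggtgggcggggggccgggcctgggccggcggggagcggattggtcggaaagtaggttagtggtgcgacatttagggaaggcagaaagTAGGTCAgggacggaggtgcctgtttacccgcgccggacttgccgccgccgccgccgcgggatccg
Per2, chr9:99496944-99497243, minus strand, D-box at -192 and E-prime box at -62: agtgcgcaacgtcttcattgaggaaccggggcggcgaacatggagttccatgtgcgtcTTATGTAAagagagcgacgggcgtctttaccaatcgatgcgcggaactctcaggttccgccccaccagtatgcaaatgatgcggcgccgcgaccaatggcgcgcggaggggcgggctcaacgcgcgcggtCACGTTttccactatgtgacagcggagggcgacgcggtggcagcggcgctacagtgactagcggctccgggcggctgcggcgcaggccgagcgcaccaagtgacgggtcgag
Cry2, chr3:98860388-98860687, minus strand, E-prime box read on the opposite strand at -212: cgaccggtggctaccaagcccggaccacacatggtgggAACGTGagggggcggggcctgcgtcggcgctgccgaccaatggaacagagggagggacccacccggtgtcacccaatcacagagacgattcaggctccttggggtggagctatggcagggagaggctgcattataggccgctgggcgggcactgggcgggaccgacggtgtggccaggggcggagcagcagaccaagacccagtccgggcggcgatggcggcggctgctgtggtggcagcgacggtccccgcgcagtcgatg
Nr1d1, chr10:84229405-84229704, minus strand, E-box at -191: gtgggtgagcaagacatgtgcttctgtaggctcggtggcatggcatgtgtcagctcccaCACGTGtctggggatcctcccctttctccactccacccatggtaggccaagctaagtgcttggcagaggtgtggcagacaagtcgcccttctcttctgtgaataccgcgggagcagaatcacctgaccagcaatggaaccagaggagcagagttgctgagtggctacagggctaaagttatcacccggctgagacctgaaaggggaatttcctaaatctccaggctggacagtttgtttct
The windows of Clock, Per1, Per3, Nr1d2 and Dbp held none of these letters. A match is a description of the sequence and no evidence of binding in these lungs.

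Per kilobase of gene length and over the 30 libraries, Per1 had the highest mean level at 22.5 ± 11.8 CPM per kb (SD, n = 30). Dbp followed at 19.6 ± 6.11, Nr1d2 at 17.7 ± 5.54 and Cry2 at 16.3 ± 2.79 CPM per kb. Cry1 stood at 11.4 ± 2.24, Per3 at 9.22 ± 4.17, Per2 at 8.11 ± 1.88, Nr1d1 at 7.53 ± 3.51, Arntl at 7.16 ± 2.21 and Clock at 6.88 ± 1.74 CPM per kb. Of neighbours in this order, the gap between Cry2 and Cry1 was larger than either SD, and the other neighbours did not differ beyond their spread. The levels below are CPM scaled by TMM and serve to compare libraries for 1 gene, not genes with each other.

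**Figure D1:**
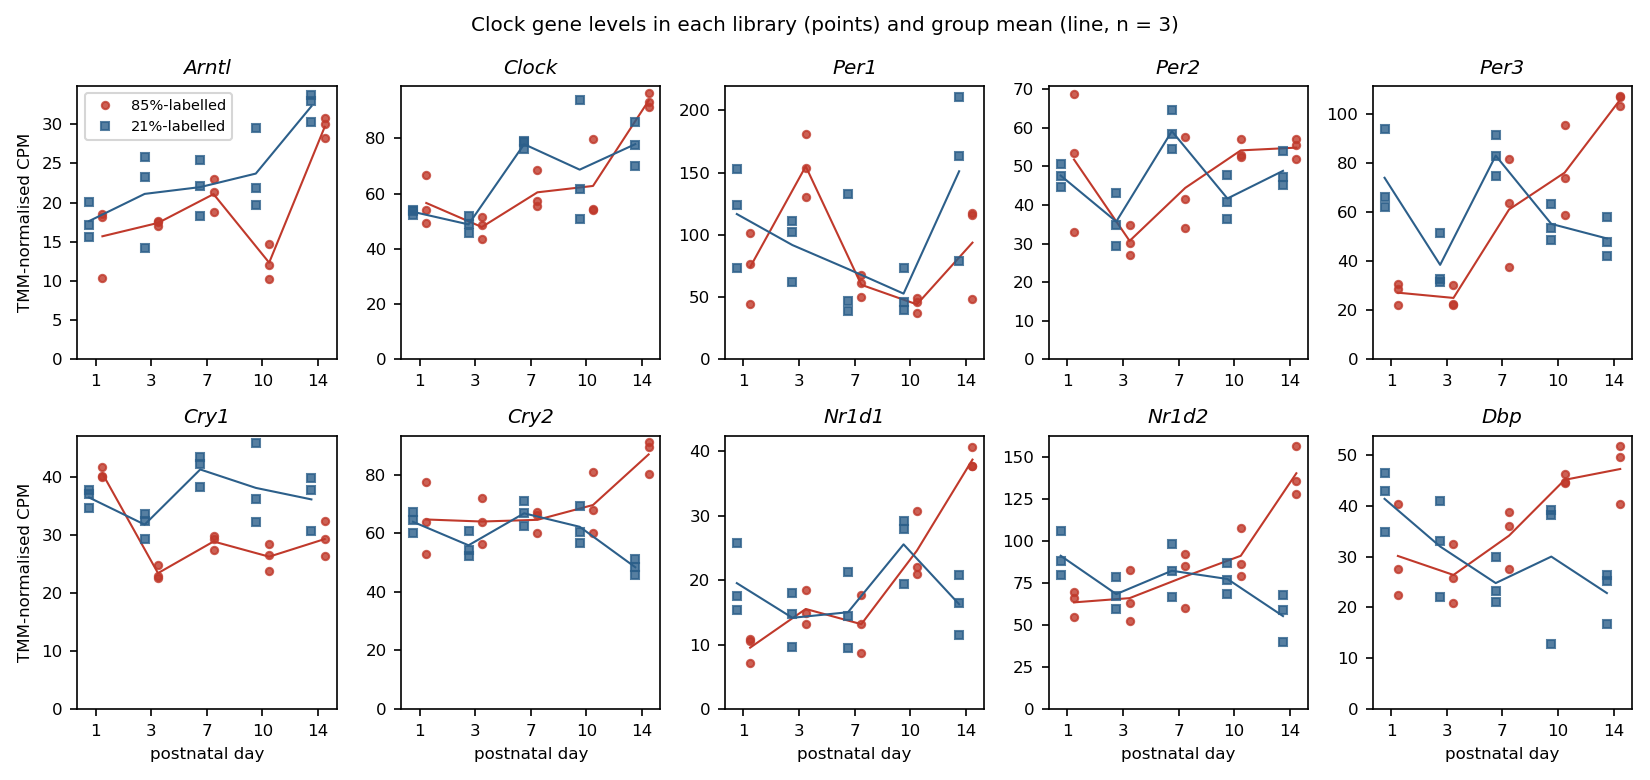
CPM (vertical axis) of each clock gene in the 30 libraries against postnatal day, with 1 point per library and the oxygen label by colour. At day 14 the 85%-labelled libraries of Per3, Cry2, Nr1d1, Nr1d2 and Dbp sit above those of the 21% label, and at day 1 those of Per3, Nr1d1 and Nr1d2 sit below them.

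The arms differed most in these genes at day 14, when 5 of 10 were higher under the 85% label and none was lower: the repressors Per3 and Cry2, the nuclear receptors Nr1d1 and Nr1d2, and the output gene Dbp, by 1.80- to 2.54-fold. At day 1, 3 of 10 (Per3, Nr1d1 and Nr1d2) were lower under the same label. At day 10, 2 of 10 (Arntl and Cry1) were lower. At days 3 and 7 none was called. A call needed a log2 fold change of 0.5 or more in size and an adjusted p below 0.05, by edgeR's quasi-likelihood test with adjustment over the 17571 genes. The share of all genes called in either direction was 21.2% at day 14 (10.5% higher), 41.4% at day 1 (20.8% lower) and 2.93% at day 10 (1.18% lower). It was 0.393% at day 3 and 0.0854% at day 7. The median log2 difference of the 10 genes was 0.55 at day 14 and -0.31 at day 1, beside 0.01 and 0.03 over all genes tested. Of the calls at day 14, 5 of 5 held under each of 8 alternative settings, and the count was 4 without replicate 1 of the 21%-labelled day 14 group, where Dbp was lost. In bulk tissue, fewer cells of a type and less RNA per cell cannot be told apart.

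**Figure D2:**
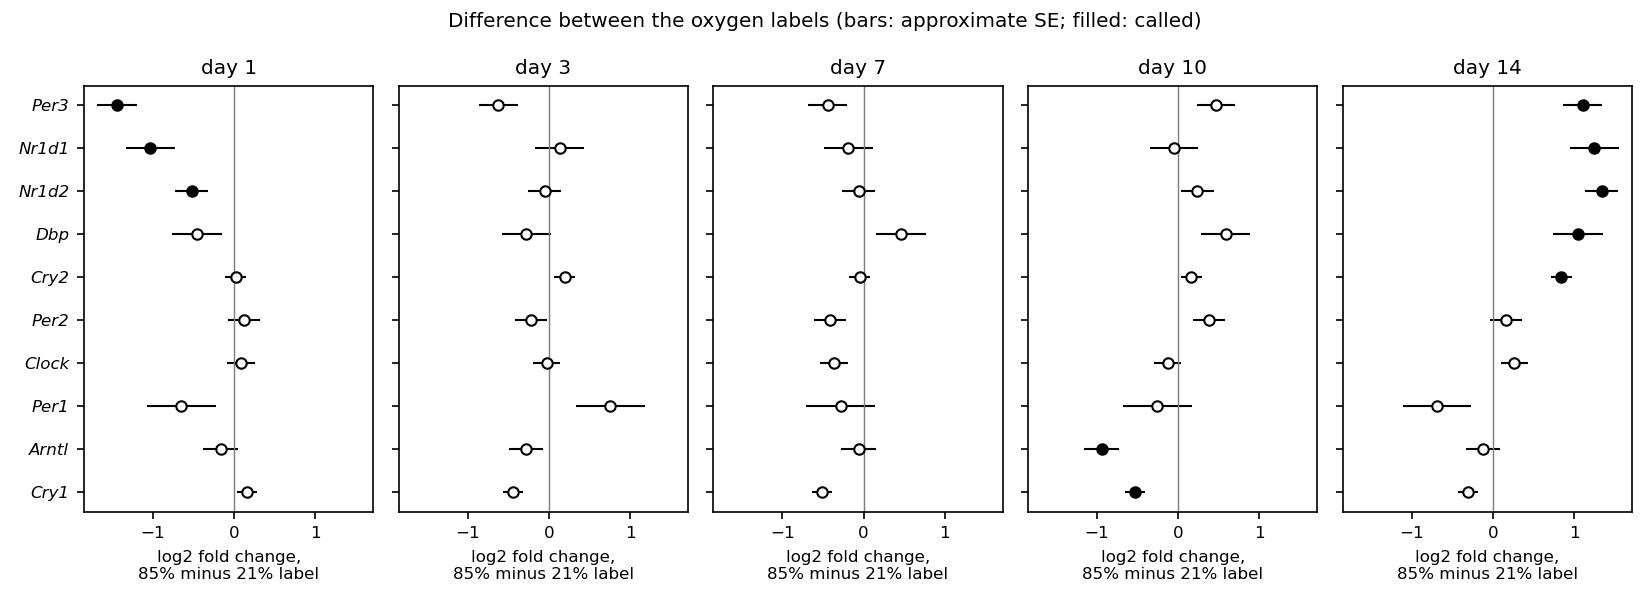
Log2 fold change (horizontal axis, 85%-labelled minus 21%-labelled) of the 10 clock genes at each day, with bars of 1 approximate SE and filled points for called genes. Per3, Nr1d1 and Nr1d2 lie left of 0 at day 1 and right of 0 at day 14.

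Arntl and Clock encode the activating pair. Arntl (ENSRNOG00000014448, chromosome 1, 178039063 to 178137465 in the coordinates of the deposited table) rose with age under both labels. It went from 17.6 ± 2.26 CPM at day 1 to 32.3 ± 1.80 CPM at day 14 under the 21% label (SD, n = 3 each), a log2 difference of 0.87 (adjusted p 0.00408). Under the 85% label it went from 15.7 ± 4.66 to 29.7 ± 1.33 CPM (0.92, adjusted p 0.00101). The 85%-labelled course was broken at day 10. There the 3 libraries of that label held 14.7, 12.0 and 10.3 CPM, and the 3 of the 21% label held 21.9, 19.7 and 29.5 CPM. The groups did not overlap, and the 85%-labelled libraries were all lower than the lowest 21%-labelled one. The log2 difference was -0.94 ± 0.21 (approximate SE, adjusted p 0.0141), while at the other 4 days it lay between -0.28 and -0.06 with adjusted p of 0.537 or more. The call ended without replicate 3 of the 21%-labelled group (-0.75, adjusted p 0.114), without replicate 3 of the 85%-labelled group (-0.83, adjusted p 0.0952) and when the 6 day 10 libraries were fitted alone (adjusted p 0.228). In that last fit the Arntl difference was -0.93, and 0.0567% of all genes were called. The F test of whether the Arntl difference changed between days gave an adjusted p of 0.0929.

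Clock (ENSRNOG00000002175, chromosome 14), the partner of BMAL1, was not called between the arms at any day. Its day means ranged from 48.9 to 77.9 CPM under the 21% label and from 47.9 to 93.7 CPM under the 85% label. At day 14 its libraries did not overlap, with 70.0, 86.1 and 77.7 CPM under the 21% label and 93.1, 96.4 and 91.5 CPM under the 85% label, and the difference of 0.27 had an adjusted p of 0.268. With it, 6 of 10 clock genes had 85%-labelled libraries that were all higher at day 14, beside 25% of all genes. Clock rose from day 1 to day 14 under both labels, by 0.54 (adjusted p 0.0216) and 0.73 (adjusted p 0.000998) on the log2 scale.

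The Period genes encode inhibitors of the activating pair, and of the 3 Per3 had calls between the arms. Per3 (ENSRNOG00000018413, chromosome 5) had one of the widest courses. At day 1 the 21%-labelled libraries held 62.2, 94.1 and 66.1 CPM and the 85%-labelled ones 22.1, 30.8 and 28.6 CPM. At day 14 they held 42.2, 57.9 and 47.9 CPM and 104, 107 and 107 CPM. The groups did not overlap at either day, and their order was opposite. The log2 difference went from -1.44 ± 0.24 at day 1 (adjusted p 0.000405) through -0.62, -0.44 and 0.46 at days 3, 7 and 10 (adjusted p 0.323 or more) to 1.10 ± 0.24 at day 14 (adjusted p 0.00133, a 2.15-fold higher level). The change of this difference between days had an adjusted p of 7.76e-05. Under the 85% label Per3 rose by 1.96 from day 1 to day 14 (adjusted p 5.41e-06), and under the 21% label the difference was -0.59 (adjusted p 0.0786).

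Per2 (ENSRNOG00000020254, chromosome 9) was not called between the arms. Its day means lay between 30.7 and 59.2 CPM, lowest at day 3 under both labels, and its differences ranged from -0.41 at day 7 to 0.38 at day 10 with adjusted p of 0.29 or more. Per1 (ENSRNOG00000007387, chromosome 10), which is also induced directly by glucocorticoid and stimulus signals, varied most between libraries of a group. At day 14 its 21%-labelled libraries held 79.0, 163 and 211 CPM and its 85%-labelled ones 116, 48.1 and 117 CPM. At day 7 the 21%-labelled libraries held 132, 38.6 and 46.5 CPM. These groups were wide and overlapped, and no Per1 difference between the arms was called, with estimates from -0.69 at day 14 (adjusted p 0.255) to 0.76 at day 3 (adjusted p 0.741). The day 3 groups did not overlap, at 130 to 181 CPM under the 85% label and 62.2 to 111 CPM under the 21% label.

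The Cryptochromes are partners of the Period proteins in repression. Cry2 (ENSRNOG00000007478, chromosome 3) held 48.3, 45.7 and 51.1 CPM at day 14 under the 21% label and 90.9, 89.3 and 80.3 CPM under the 85% label. All 3 85%-labelled libraries were above the highest of the others. The difference of 0.84 ± 0.13 (adjusted p 3.11e-05, 1.80-fold) was called at that day and no other. The estimates at days 1 to 10 lay between -0.05 and 0.20 with adjusted p of 0.625 or more, and the change between days had an adjusted p of 0.0038. Cry1 (ENSRNOG00000006622, chromosome 7) was called at another day. At day 10 it held 36.3, 32.3 and 46.0 CPM under the 21% label and 23.8, 28.5 and 26.6 CPM under the 85% label, with no overlap, a difference of -0.54 ± 0.12 (adjusted p 0.0144).

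Cry1 differences of the same sign were seen at other days without a call: -0.44 at day 3 (adjusted p 0.18), -0.52 at day 7 (adjusted p 0.0965) and -0.30 at day 14 (adjusted p 0.0737). Its libraries did not overlap at days 3 and 7 either. At day 7 the 21%-labelled libraries held 42.3, 38.3 and 43.6 CPM and the 85%-labelled ones 29.4, 27.5 and 29.9 CPM, and DESeq2 called the gene there (-0.53, adjusted p 0.0116). At day 1 the difference was 0.15 (adjusted p 0.304), and the change between days had an adjusted p of 0.0146. The day 10 call of Cry1 ended without replicate 1 (-0.46, adjusted p 0.11) or replicate 3 (-0.55, adjusted p 0.0635) of the 85%-labelled group, without replicate 3 of the 21%-labelled group (-0.37, adjusted p 0.158), and when the 6 libraries of day 10 were fitted alone (adjusted p 0.37). In that last fit the Cry1 difference was -0.52, and 0.0567% of all genes were called.

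Nr1d1 and Nr1d2, the REV-ERB repressors of Arntl, shared with Per3 the turn of sign between day 1 and day 14. Nr1d2 (ENSRNOG00000046912, chromosome 15) held 39.6, 67.5 and 58.7 CPM at day 14 under the 21% label and 157, 136 and 128 CPM under the 85% label. The lowest 85%-labelled library stood well above the highest of the other group. The difference of 1.34 ± 0.20 (adjusted p 3.05e-05, 2.54-fold) was the largest of the 10 genes at day 14. At day 1 the order was the reverse, with 79.6, 106 and 87.9 CPM under the 21% label and 54.9, 65.9 and 69.5 CPM under the 85% label (-0.52 ± 0.20, adjusted p 0.0366). Its differences at days 3, 7 and 10 were -0.05, -0.06 and 0.24, with adjusted p of 0.66 or more.

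Nr1d1 (ENSRNOG00000009329, chromosome 10, 86683875 to 86690815 in the deposited table) held 11.5, 20.8 and 16.5 CPM at day 14 under the 21% label and 37.7, 37.6 and 40.7 CPM under the 85% label (1.25 ± 0.30, adjusted p 0.00329, 2.38-fold). At day 1 it held 15.3, 25.7 and 17.6 CPM under the 21% label and 7.19, 10.5 and 10.8 CPM under the 85% label (-1.03 ± 0.30, adjusted p 0.00845). The groups did not overlap at either day. From day 1 to day 14 Nr1d1 rose by 2.02 under the 85% label (adjusted p 3.16e-05) and Nr1d2 by 1.14 (adjusted p 0.000103). Under the 21% label the estimate for Nr1d1 was -0.26 (adjusted p 0.583) and Nr1d2 fell by 0.72 (adjusted p 0.0115). Nr1d1 overlaps Thra on the opposite strand by 1059 bases, and since the sources used here do not say whether counting used strand, reads of the pair in that stretch cannot be told apart.

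Dbp (ENSRNOG00000021027, chromosome 1), the output activator, held 16.8, 25.3 and 26.4 CPM at day 14 under the 21% label and 51.8, 40.3 and 49.6 CPM under the 85% label. The groups did not overlap, and the difference was 1.05 ± 0.30 (adjusted p 0.0132, 2.07-fold). The call ended without replicate 1 of the 21%-labelled group (0.88, adjusted p 0.0767). At day 10 the 85%-labelled libraries lay close together at 44.6, 46.3 and 44.4 CPM and the 21%-labelled ones were spread over 38.1, 39.1 and 12.8 CPM, a difference of 0.59 that was not called (adjusted p 0.365). Under the 21% label Dbp fell by 0.86 from day 1 to day 14 (adjusted p 0.0441). Under the 85% label the estimate was 0.65 (adjusted p 0.0698).

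RNA composition differed between the arms at day 1. The 85%-labelled day 1 libraries had 19.1%, 5.31% and 11.5% mitochondrial counts, and the 21%-labelled ones 2.71% to 3.03%. Across genes within a library, the rank correlation of gene level with gene length was 0.23, 0.29 and 0.23 under the 85% label and 0.34 to 0.36 under the 21% label. With the mitochondrial share as a covariate 0 of the 3 genes were called (Per3 -0.67, Nr1d1 -0.67 and Nr1d2 -0.44, adjusted p 0.553 or more), and 0.159% of all genes were. With the length correlation as a covariate, Per3 was at -0.79, Nr1d1 at -0.65 and Nr1d2 at -0.33 (adjusted p 0.0892 or more). In that setting, chosen after seeing the data, the count was also 0, beside 0.979% of all genes. It was 0 as well when the 4 libraries with a mitochondrial share above 6% were dropped, a fit in which the 85%-labelled day 1 group has 1 library, assumed to vary like the others. In that fit the log2 differences were -1.26 for Per3, -0.88 for Nr1d1 and -0.46 for Nr1d2, beside -1.44, -1.03 and -0.52 with all libraries, with adjusted p of 0.074 or more. Since the mitochondrial shares of the arms did not overlap at day 1, label and RNA composition cannot be told apart there. At day 14 the mitochondrial shares did not overlap either, at 2.69% to 2.77% under the 85% label and 3.33% to 3.77% under the 21% label. The length correlations there were 0.38 to 0.40 and 0.32 to 0.36, also without overlap. Label and RNA composition therefore cannot be told apart at day 14 either. In each of these fits 5 of 5 day 14 calls were made.

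As the mean of the 5 days, 0 of 10 genes were called, beside 13.3% of all genes. DESeq2 called 0 as well, and 4 of 10 had an unadjusted p under 0.05 in edgeR. Cry1 (-0.33 ± 0.05, adjusted p 0.000169), Arntl (-0.31 ± 0.09, adjusted p 0.0163) and Cry2 (0.23 ± 0.06, adjusted p 0.00452) passed the adjusted p but not the size. At day 3, 0 of 10 were called by edgeR and by DESeq2, with 2 at an unadjusted p under 0.05. At day 7, 0 were called by edgeR, with 3 at an unadjusted p under 0.05, and DESeq2 called 1, Cry1. The difference between the arms changed between days for 6 of 10 genes (F test with no size threshold), beside 37.6% of all genes: Per3, Cry1, Cry2, Nr1d1, Nr1d2 and Dbp. With the day 1 libraries left out, a setting chosen after seeing the data, it changed for 3 of 10, Per3 (adjusted p 0.00402), Cry2 (adjusted p 0.00485) and Nr1d2 (adjusted p 0.00665), beside 13% of all genes.

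Within the 21%-labelled arm, 7 of 10 genes differed between days, beside 56.3% of all genes, and Cry1, Nr1d1 and Dbp did not pass the test. Within the 85%-labelled arm 9 of 10 did, beside 58.9% of all genes, and Dbp did not pass (adjusted p 0.0683). From day 1 to day 14 the 21%-labelled arm had 4 calls of 10, beside 19.1% of all genes: Arntl and Clock rose, and Nr1d2 and Dbp fell. The 85%-labelled arm had 5 calls, all of them rises (Arntl, Clock, Per3, Nr1d1 and Nr1d2), beside 51.1% of all genes called and 25.1% called higher. With the mitochondrial share as a covariate 0 of these 5 were called, beside 3.37% of all genes. With the length correlation Per3 and Nr1d1 still were, with Dbp beside them and 4.4% of all genes called. Measured from day 3 in place of day 1, Arntl (0.62, adjusted p 0.0144) and Clock (0.68, adjusted p 0.00476) were called under the 21% label, 2 of 10 beside 36.7% of all genes. Under the 85% label 7 of 10 genes were called from day 3, all of them rises, beside 46.5% of all genes called in either direction. The share of all genes called higher was not worked out for this comparison. Among the 7 were Per3 by 2.08 (adjusted p 2.16e-05), Nr1d1 by 1.32 (adjusted p 0.0013), Nr1d2 by 1.09 (adjusted p 0.000415) and Dbp by 0.84 (adjusted p 0.0274).

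Ratios within a library hardly depend on the scaling between libraries. Those to Arntl compare it with genes on the other side of the loop, while Per3 and Cry1 both encode repressors and stand on the same side. The log2 ratio of Nr1d1 to Arntl was between 0.80 and 1.09 in the 85%-labelled day 10 libraries and between -0.60 and 0.50 in the 21%-labelled ones. At day 14 it was between 0.29 and 0.44 against -1.54 to -0.66. The ratio of Dbp to Arntl was between 1.59 and 2.10 against -1.20 to 0.99 at day 10, and between 0.39 and 0.87 against at most -0.20 at day 14. For both ratios the 85%-labelled libraries were all higher at days 10 and 14, and the groups overlapped at days 1, 3 and 7. The ratio of Per3 to Arntl was likewise higher in all 85%-labelled libraries at days 10 and 14 and overlapped at days 3 and 7. At day 1 it was lower in all of them, at 0.28 to 1.46 against 1.62 to 2.44. The ratio of Per3 to Cry1 behaved alike, with -0.91 to -0.39 against 0.72 to 1.44 at day 1 and 1.67 to 2.02 against 0.15 to 0.91 at day 14. No ratio was tested, and the spread within the 21%-labelled groups was wide at day 10.

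**Figure D3:**
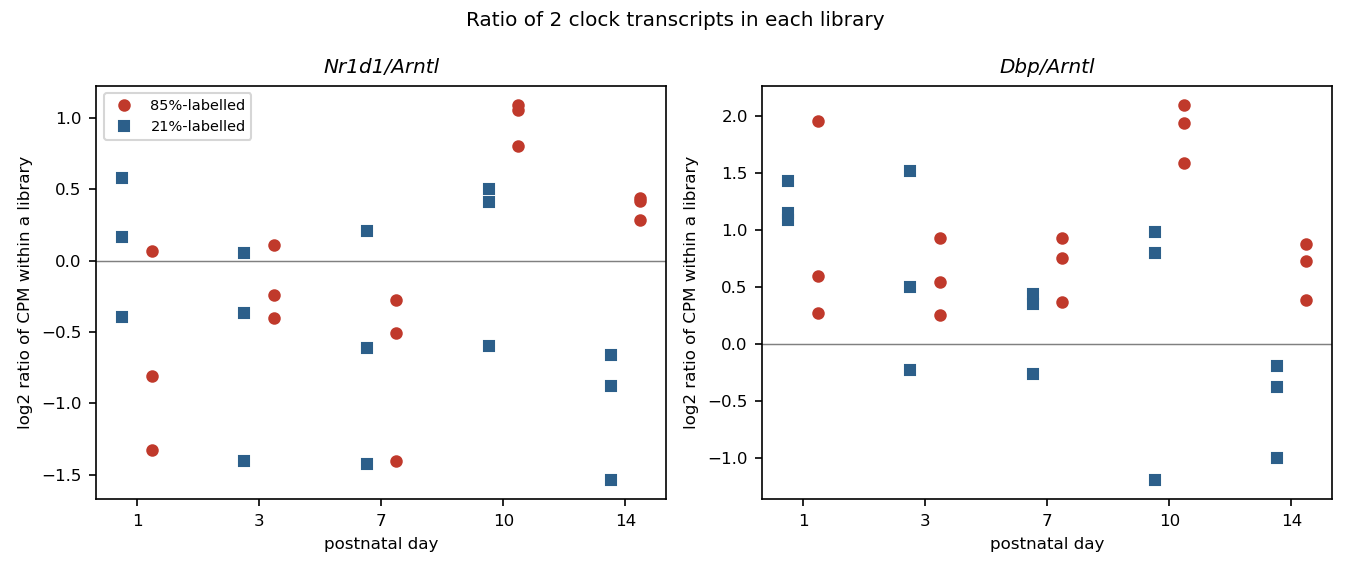
Log2 ratio of CPM of Nr1d1 to Arntl and of Dbp to Arntl in each library (vertical axis) against postnatal day, with circles for 85%-labelled and squares for 21%-labelled libraries. The circles lie above the squares at days 10 and 14 and are mixed with them at days 3 and 7.

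Other genes of the loops were counted from a list of 15, of which 11 were tested. Arntl2 and Rorb had at most 10 counts in a library, and the others of the list were not analysed here. At day 14 Tef, a D-box activator of the same family as Dbp, was higher under the 85% label, and Nfil3, Noct, Bhlhe40 and Bhlhe41 were lower. So 1 of 11 rose and 4 fell, beside 21.2% of all genes called in either direction. Nfil3, a repressor that competes with the Dbp family for D-boxes, held 56.3, 60.7 and 82.7 CPM under the 21% label and 13.2, 14.4 and 13.2 CPM under the 85% label (-2.29 ± 0.25, adjusted p 3.86e-07). Tef held 78.3, 95.8 and 93.3 CPM and 187, 176 and 165 CPM (0.98 ± 0.16, adjusted p 9.22e-05). For both genes the groups were far apart, in opposite directions.

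Hlf, the third member of the Dbp family, stood at 6.50 ± 1.30 CPM under the 21% label and at 16.8 ± 1.04 CPM under the 85% label at day 14 (SD, n = 3 each), without overlap, and its difference of 1.37 was not called (adjusted p 0.0657). Bhlhe40 (-1.83, adjusted p 0.00325) and Bhlhe41 (-1.36, adjusted p 0.0322) encode the DEC repressors that bind E-boxes, and Noct (-1.58, adjusted p 6.81e-06) encodes nocturnin, whose transcript cycles in many rodent tissues. At day 1, 6 of 11 were lower and none higher, beside 20.8% of all genes called lower. They were Bhlhe40 (-2.35), Hlf (-1.89), Bhlhe41 (-1.81), Rora (-1.69), Npas2 (-0.82) and Tef (-0.65), with adjusted p between 0.00072 and 0.0407. The mitochondrial shares of the arms did not overlap at day 1 or at day 14. No gene of the list was called at days 3 and 7, and Noct (-0.83, adjusted p 0.0292) was lower at day 10. The median log2 difference of the 11 genes was -0.65 at day 1 and 0.11 at day 14, beside 0.03 and 0.01 over all genes. Of 10 tested genes that modify clock proteins, such as casein kinases and F-box proteins, Csnk1a1, Fbxw11 and Gsk3b were lower at day 1 and 1 was higher. At that day 41.4% of all genes were called in either direction. None of the 10 was called from day 3 to day 14.

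**Figure D4:**
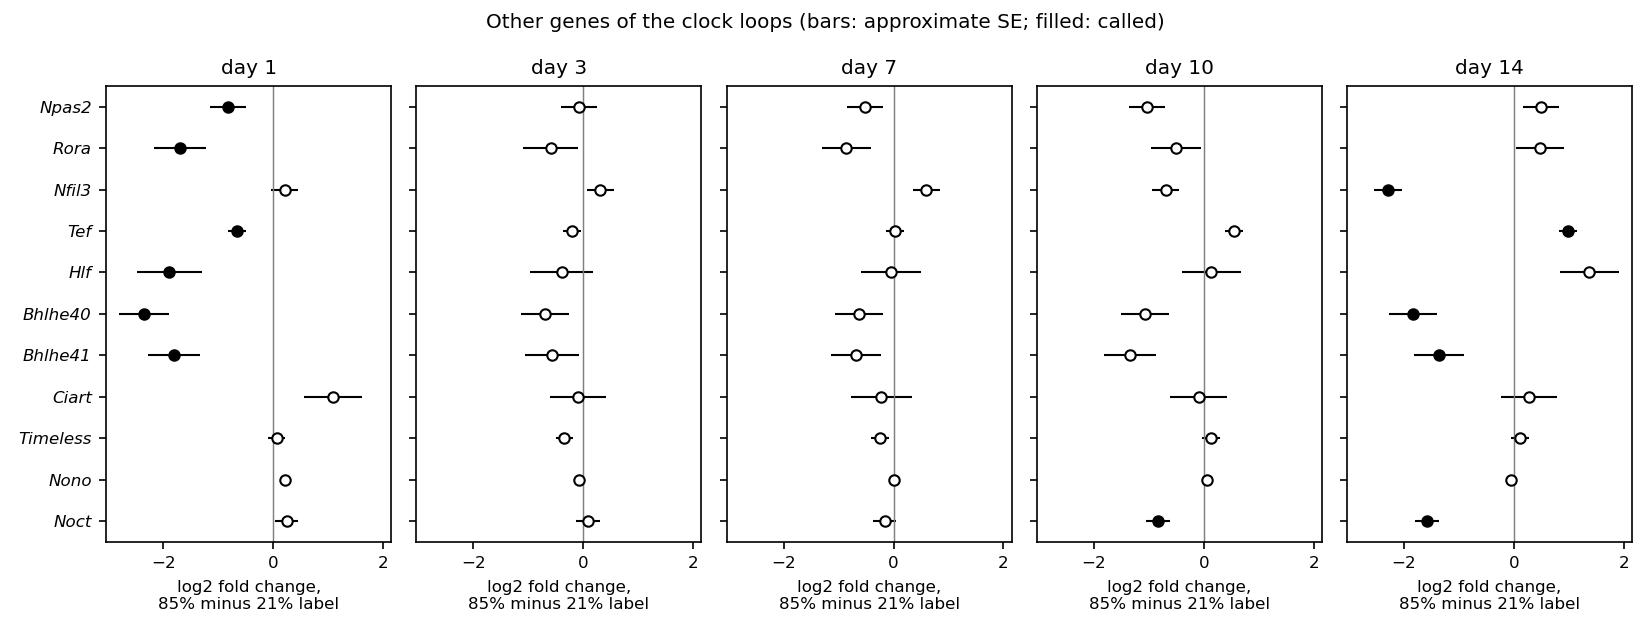
Log2 fold change (horizontal axis, 85%-labelled minus 21%-labelled) of the 11 other clock genes tested, at each day, with bars of 1 approximate SE and filled points for called genes. At day 14 Nfil3 lies on the negative side and Tef on the positive side.

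Genes that respond to glucocorticoids or to acute stimuli can move some clock genes, so both lists were read beside them. At day 14, 4 of 7 glucocorticoid response genes were lower under the 85% label, with Fkbp5 at -1.16, Errfi1 at -1.09 and Ddit4 at -0.98 (adjusted p 0.0084 or less). At day 3 Ddit4 was higher instead (1.30), at day 1 Klf9 was lower (-1.89), and none was called at days 7 and 10. Of 9 immediate early genes, 8 were lower at day 14, with Egr1 at -3.47, Junb at -1.97 and Dusp1 at -1.91. At day 10, 6 were lower, at day 1 Atf3 was higher, and at days 3 and 7 none was called. The summed level of the immediate early genes was 463 to 560 CPM in the 85%-labelled day 14 libraries and 1181 to 1715 CPM in the 21%-labelled ones. Its part in the clock gene differences was not tested.

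Within groups, Per1 followed the glucocorticoid genes from library to library. After centring each group on its mean, log2 Per1 and the log2 summed level of these genes had a Pearson r of 0.858 over 30 libraries (permutation p 0.00022, adjusted over 2 relations 0.00044, two-sided) and a Spearman rho of 0.783 (permutation p 0.0002). Without the 2 libraries farthest from the median of the centred summed level, r was 0.738. With the immediate early genes r was 0.306 (permutation p 0.26) and rho 0.362 (permutation p 0.11), and r was 0.137 without the 2 farthest libraries. Libraries were permuted within groups 100000 times, and they may not be separate animals. The relation was chosen after the values were seen, so these p-values do not measure how often it would arise by chance.

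Cell type markers also moved with the label at day 14. The 5 endothelial markers tested were all higher under the 85% label, with a summed level of 2809 to 3192 CPM against 880 to 1176 CPM, and the 6 macrophage markers were all lower, at 188 to 214 CPM against 539 to 753 CPM. Lung epithelial markers had 3 of 8 lower and fibroblast and pericyte markers 2 of 6 higher. At that day 21.2% of all genes were called in either direction, and 10.5% were called higher. Of 5 heart muscle markers, 4 were higher, at 175 to 860 CPM against 29.4 to 118 CPM, and Myh7 was at 0 in the 21%-labelled libraries. At day 10, when 2.93% of all genes were called, endothelial markers had 4 of 5 higher, at 2284 to 2578 CPM against 1480 to 1613 CPM. Replicate 1 of the 85%-labelled day 10 group alone carried skeletal muscle transcripts, with a summed level of 1575 CPM against at most 12.4 CPM in the 21%-labelled libraries of that day. Squamous epithelial markers had 2 of 4 higher at day 10, at 7.15 to 247 CPM against 6.23 to 14.5 CPM. Without replicate 1 of the 85% label Arntl was called at day 10 and Cry1 was not. At day 1, when 41.4% of all genes were called and 20.8% called lower, squamous markers had 3 of 4 lower, at 38.3 to 43.1 CPM against 44.8 to 318 CPM. Of the others at day 1, lung epithelium had 3 of 8 higher and 2 lower (30834 to 73138 CPM against 25425 to 30267 CPM), endothelium 1 of 5 higher and 2 lower (1945 to 2032 CPM against 1773 to 2071 CPM), macrophages 2 of 6 higher and 1 lower (164 to 225 CPM against 170 to 189 CPM), and fibroblasts and pericytes 2 of 6 higher (3070 to 3802 CPM against 2708 to 3331 CPM). At day 3, where no clock gene was called, 6 of 6 erythroid markers were higher under the 85% label, beside 0.393% of all genes called. Their summed level was 29723 to 42713 CPM against 3554 to 12554 CPM. The part of tissue composition in the clock gene differences was not tested.

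Across the 30 libraries, which share groups and days, the clock genes most alike in log2 level were Nr1d1 and Nr1d2 (Pearson r 0.79, and 0.85 after centring each group). Per3 went with Nr1d2 (0.75, centred 0.70) and with Nr1d1 (0.69, centred 0.81), and Clock with Per2 (0.69, centred 0.63). Arntl and Dbp went opposite ways (-0.40, centred -0.60). Among 13986 genes, those nearest to Arntl were Gramd1b (0.76), Scara3 (0.76) and Slc20a2 (0.74), and those most opposed were Spr (-0.84), Cavin2 (-0.81) and Ralb (-0.78). Those nearest to Dbp were Tcp11l2 (0.71) and Rtn1 (0.71), and those most opposed were Usp14 (-0.71), Nolc1 (-0.71) and Riox2 (-0.70). These correlations describe the libraries, are largest values picked from many, and carry no test.

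The authors' deposited table of fold changes gave a similar tally. By an adjusted p under 0.05 and the same size, it passed 3 of the 10 genes at day 1, none at days 3 and 7, 1 at day 10 (Arntl, -0.95, adjusted p 0.0225, with the sign turned to 85% minus 21%) and 5 at day 14.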

How the data were processed

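Whole-lung mRNA libraries (RNeasy columns, SMARTer mRNA-seq kit, per the labels' protocols) were analysed from the authors' deposited counts per gene, which are raw whole numbers. The authors' deposited log2 fold changes and adjusted p-values were read for comparison only. The deposited gene length was used for levels per kb, and 30 deposited FPKM columns were not used. No aligner, counter, strand setting or rat build is named (not given in the sources used here). GRCm38 and mm10, both mouse builds, appear in the submitters' processing notes although the gene IDs are rat ones, and coordinates are printed as deposited. Promoter windows come from RefSeq, build GRCr8.

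Tests were run in R 4.3.3 with edgeR 4.0.16 (limma 3.58.1 installed beside it) and, as an alternative, DESeq2 1.42.0. After filterByExpr and TMM scaling, a robust quasi-likelihood model with 1 mean per group was fitted to the 30 libraries, with 20 residual degrees of freedom, with Benjamini-Hochberg adjustment over 17571 genes. Calls needed an adjusted p below 0.05 and, except in F tests, a log2 fold change of 0.5 or more in size. The SE beside a fold change is its absolute value divided by the square root of the F statistic, an approximation. Log2 levels for ratios and correlations used a prior count of 2. The steps were tested on simulated data. Total counts of 14951463 to 18074590 (median 16069831) limit the precision of low genes. No pair of libraries was identical.

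The clock genes and the gene lists were chosen with earlier results of these data known. The 10 clock genes are described at each day. Of other clock genes, up to 6 called ones with the smallest p are named per comparison, and of the glucocorticoid and immediate early lists up to 3; Hlf at day 14 and marker genes singled out, were named after their values were seen. Some genes that meet these rules are not reported. Alternatives were another scaling, no filter on low counts, DESeq2, each library left out, the mitochondrial share or the length correlation as a covariate, no libraries above 6% mitochondrial counts, only the libraries of a comparison, a replicate block, and day 1 left out. The length covariate and the fit without day 1 were added after seeing the data.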

Additional observations from a re-analysis of the deposited data

Results flagged for a closer look

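For 6 of the 10 clock genes the difference between the arms itself changed between days, in edgeR's F test on the 30 libraries. The adjusted p was 7.76e-05 for Per3, which was lower under the 85% label at day 1 (-1.44) and higher at day 14 (1.10). It was 0.000561 for Nr1d2 (-0.52 and 1.34) and 0.0046 for Nr1d1 (-1.03 and 1.25), with the same turn of sign. It was 0.0038 for Cry2, which differed at day 14 (0.84) and by 0.20 or less before. It was 0.0146 for Cry1, with 0.15 at day 1 and -0.54 to -0.30 later, and 0.031 for Dbp (-0.46 at day 1 and 1.05 at day 14). Of all genes, 37.6% passed this test. With the mitochondrial share as a covariate Nr1d1 (adjusted p 0.0824) and Cry1 (adjusted p 0.0746) did not pass, and Per2 did (adjusted p 0.0401). With the length correlation as a covariate Nr1d1 did not pass (adjusted p 0.0771), and Arntl did (adjusted p 0.0247). Replicates 1 and 3 of the 85%-labelled day 1 group had the highest mitochondrial shares of all libraries, at 19.1% and 11.5%. Replicate 2 had 5.31%. Without day 1 Per3, Cry2 and Nr1d2 passed.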

How the results depend on the processing

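Of the called differences between the arms, those of Per3, Cry2, Nr1d1, Nr1d2 and Dbp at day 14 were called under 8 of 8 settings beside the left-out libraries, and no difference of a called gene changed sign. Over the genes, 1044 single values kept their side of the threshold, 23 lost a call and 3 gained one (Cry1 at day 7). The 1044 include values called in neither fit, and a loss was possible only for the called differences. The count at day 1 went from 3 to 0 with the mitochondrial share as a covariate, with the correlation with gene length as a covariate and without the libraries above 6% mitochondrial counts. The count at day 7 went from 0 to 1 with DESeq2 and with the mitochondrial covariate, and that at day 10 from 2 to 0 with only the libraries of that day. For the change between days it went from 6 to 3, and for day 14 against the first day under the 21% label from 4 to 2, without day 1. Under the 85% label any difference between days went from 9 to 5 with the length covariate, and day 14 against day 1 from 5 to 0 with the mitochondrial and to 3 with the length covariate. The causes were not tested. Leaving out 1 library at a time gave 1 to 3 calls at day 1 (1 without 85%-labelled replicate 1 or 21%-labelled replicate 2), 0 to 0 at day 3, 0 to 1 at day 7 (1 without 85%-labelled replicate 3), 0 to 2 at day 10 (0 without replicate 3 of either label, 1 without 85%-labelled replicate 1), 4 to 5 at day 14, 0 to 0 for the mean and 4 to 7 for the change between days (4 without 21%-labelled day 1 replicate 2). It gave 4 to 9 for any day under the 21% label (4 without day 3 replicate 2, day 7 replicate 2 or day 14 replicate 3) and 8 to 10 under the 85% label. For day 14 against day 1 it gave 2 to 4 under the 21% label (2 without day 1 replicate 2, day 14 replicate 1 or day 14 replicate 2) and 5 to 6 under the 85% label. Same-numbered libraries of the arms had correlated deviations over 0.1 in 10 of 15 pairs (from -0.41 to 0.76). Pairing was accepted only if all pairs passed, so the numbers were not taken as pairing, although the 3 pairs of day 3 and the 3 of day 7 did pass. The blocked counts at those days were 0, as without the block. With the replicate block the count at day 10 went from 2 to 1, with Arntl kept and Cry1 at -0.53 (adjusted p 0.0562), and the count at day 14 was 5.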
